A study of Homo sapiens with 12 samples.

Results

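The 8 genes described here encode proteins that bring iron into cells, store it, release it from storage and export it: FTL, FTH1, TFRC, SLC40A1, SLC11A1, SLC11A2, NCOA4 and STEAP3. They were picked by symbol, with earlier results of these data known, as 8 of 20307 genes in an RNA-seq table. All 8 passed the filter on low counts in every fit. The table covers 12 libraries from 2 established human lines, with 3 libraries in each of 4 groups. H1299, derived from a non-small-cell lung cancer, has groups with the genotype labels WT and DCBLD2 overexpression. No empty vector, promoter or clone is named for either. THP-1 comes from a monocytic leukaemia, and the phorbol ester PMA turns its cells macrophage-like. Its groups, of WT genotype, both received PMA for 24 h and were then kept for 48 h with H1299-Ctrl or H1299-DCBLD2. The design text describes co-culture and the sample labels describe supernatant, so whether the cells were in contact is not settled by the labels.

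Iron enters most cells bound to transferrin, which is taken up by the transferrin receptor (TFRC). In the endosome a metalloreductase such as STEAP3 reduces the iron, and the transporter DMT1 (SLC11A2) carries it into the cytosol. Ferritin, a shell built from heavy (FTH1) and light (FTL) chains, stores the iron, the receptor NCOA4 delivers ferritin to the lysosome for breakdown, and ferroportin (SLC40A1) is the known iron exporter. Macrophages take up iron from engulfed red cells and microbes, and SLC11A1 (NRAMP1) moves metal across the membrane of their phagosomes. When iron is scarce, the iron regulatory proteins ACO1 and IREB2 bind a hairpin, the iron-responsive element. A hairpin in the 5′ untranslated region then blocks translation, and hairpins in the 3′ untranslated region of TFRC stabilise its mRNA.

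The hairpins are printed because they divide the 8 genes into those with a match before the coding sequence, those with a match after it and those with none. The search used the motif CNNNNNCAGTGN on the transcript strand alone: a bulged C, 5 bases that pair with the 5 bases after the loop (G-T pairs allowed), and the loop CAGTGN. Capitals mark the bulged C and the 6 bases of the loop, and each line is 30 bases long, read 5′ to 3′ from the GENCODE release 29 transcripts on GRCh38.
FTL, 5′, chr19:48965334-48965363, plus strand: tctcttgCttcaaCAGTGTttggacggaac
FTH1, 5′, chr11:61967574-61967603, minus strand: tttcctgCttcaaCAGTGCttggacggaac
SLC40A1, 5′, chr2:189580661-189580690, minus strand: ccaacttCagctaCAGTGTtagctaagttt
TFRC, 3′, chr3:196050979-196051008, minus strand: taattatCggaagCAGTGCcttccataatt
TFRC, 3′, chr3:196050575-196050604, minus strand: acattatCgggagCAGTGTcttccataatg
TFRC, 3′, chr3:196050510-196050539, minus strand: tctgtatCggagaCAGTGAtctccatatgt
TFRC, 3′, chr3:196050463-196050492, minus strand: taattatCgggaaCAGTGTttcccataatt
SLC11A2, 3′, chr12:50988269-50988298, minus strand: tagccatCagagcCAGTGTgtttctatggt

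The FTL and FTH1 hairpins had the same 5 bases between the bulged C and the loop. In TFRC, 4 hairpins fitted the search, in all 3 of its annotated transcripts. A hairpin of another form would be missed, so 4 need not be a full count. The SLC11A2 match needed 1 unpaired base after the loop, and it was present in 5 of the 11 basic transcripts of the gene, so it belongs to some of its 3′ ends only. No match was found for SLC11A1, NCOA4 or STEAP3, which says only that a paired form of these letters was not found in their annotated untranslated regions. A fully paired match was rare: 28 of 18361 genes held it in a 5′ untranslated region (0.152%) and 127 of 18994 in a 3′ region (0.669%). With 1 unpaired base allowed, the shares were 0.403% and 1.76%. The letters CNNNNNCAGTGN without the pairing were common, at 14.5% and 37.1%. A match is a description of the sequence. Protein binding and translation were not measured.

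**Figure D1:**
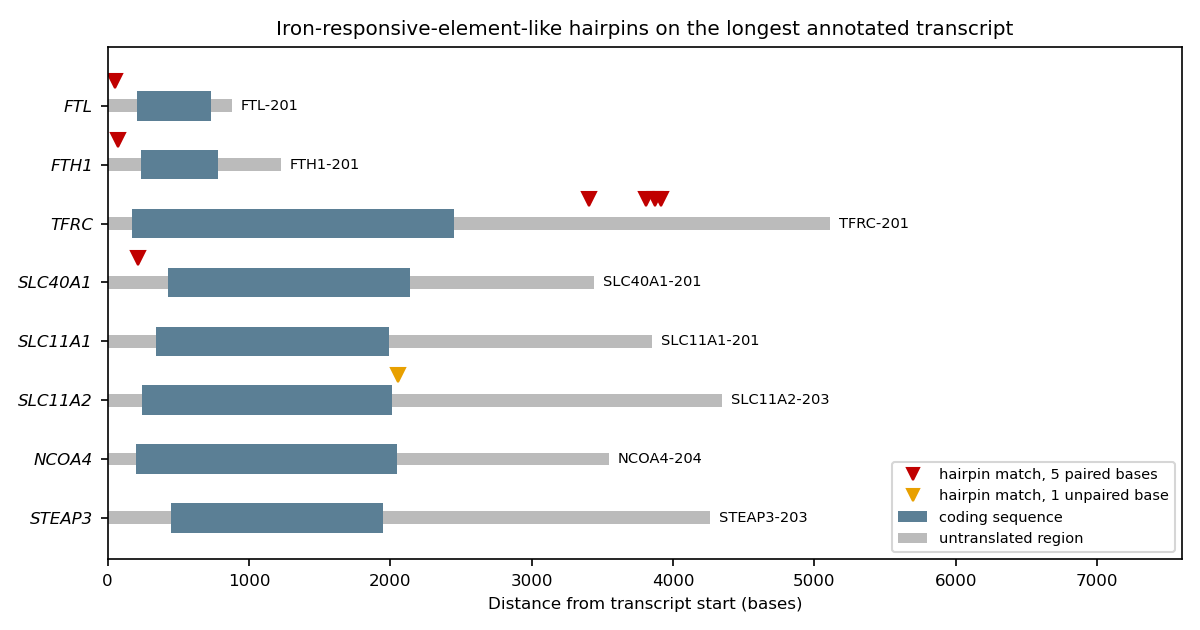
Longest annotated transcript of each of the 8 genes, drawn to scale in bases from the transcript start, with untranslated regions as thin grey bars, the coding sequence as thick blue bars and hairpin matches as triangles. The matches of FTL, FTH1 and SLC40A1 lie before the coding sequence, and the 4 of TFRC and the 1 of SLC11A2 lie after it.

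DCBLD2, a transmembrane receptor-like protein, went against the labels of H1299. It averaged 98.4 TPM ± 6.03 (SD, n = 3) where the label was DCBLD2 overexpression and 197 TPM ± 49.4 (SD, n = 3) where it was WT (log2 fold change -1.27, adjusted p = 0.00284, edgeR), where TPM is a level scaled for transcript length and library size. The groups are therefore called labelled control and labelled DCBLD2, and every direction below is labelled DCBLD2 against labelled control. Library totals ran from 14578887 to 23388187 estimated reads in H1299 and from 18606739 to 26787853 in THP-1. The replicates of THP-1 lay much closer together than those of H1299, with a common coefficient of variation of 1.96% against 13.3%. Whether replicates came from separate cultures is not stated, so p-values reflect the spread between these libraries, which may be technical. Of 12 myeloid markers, 11 had a mean above 1 TPM in both THP-1 groups. In H1299, 2 did in labelled control libraries (CD68 and TYROBP) and 1 in labelled DCBLD2 libraries (CD68), while PTPRC and AIF1 were at 0 in all. Of 12 carcinoma markers, 10 had a mean above 1 TPM in both H1299 groups. In THP-1, 8 did in labelled control and 9 in labelled DCBLD2 libraries.

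In THP-1, 7 of the 8 genes changed, and the transferrin receptor moved most among them. TFRC fell 1.84-fold, SLC11A2, NCOA4, FTL and FTH1 fell by less, and STEAP3 and SLC11A1 rose. That is 2 members higher, where 34.5% of all 13120 tested genes were called higher, and 5 lower, where 33.6% were called lower. With a fold of at least 1.5 also asked, 0 members were higher (11.3% of all genes) and 1, TFRC, was lower (9.92%). The median log2 fold change was -0.23 over the 8 members and 0.00046 over all genes tested.

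In H1299, FTL rose and STEAP3 fell, and the other 6 genes did not pass the test. This is 1 member higher and 1 lower, beside 10.3% and 10.6% of all 12773 tested genes. With a fold of at least 1.5, FTL remained at 1.503-fold (6.15% of all genes were called higher at that size) and no member was lower (5.7%). FTL lay on that limit: its log2 fold change was below it with upper quartile or total-count scaling (0.56 to 0.57), and without labelled control replicate 1 or 3 or labelled DCBLD2 replicate 2 or 3 (down to 0.51), which leaves 0 members at that size. The members' median log2 fold change was -0.11, beside 0.0047 for all genes. Calls in each line rest on edgeR's quasi-likelihood test, with p-values adjusted by the Benjamini-Hochberg method over all genes and a threshold of 0.05.

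**Figure D2:**
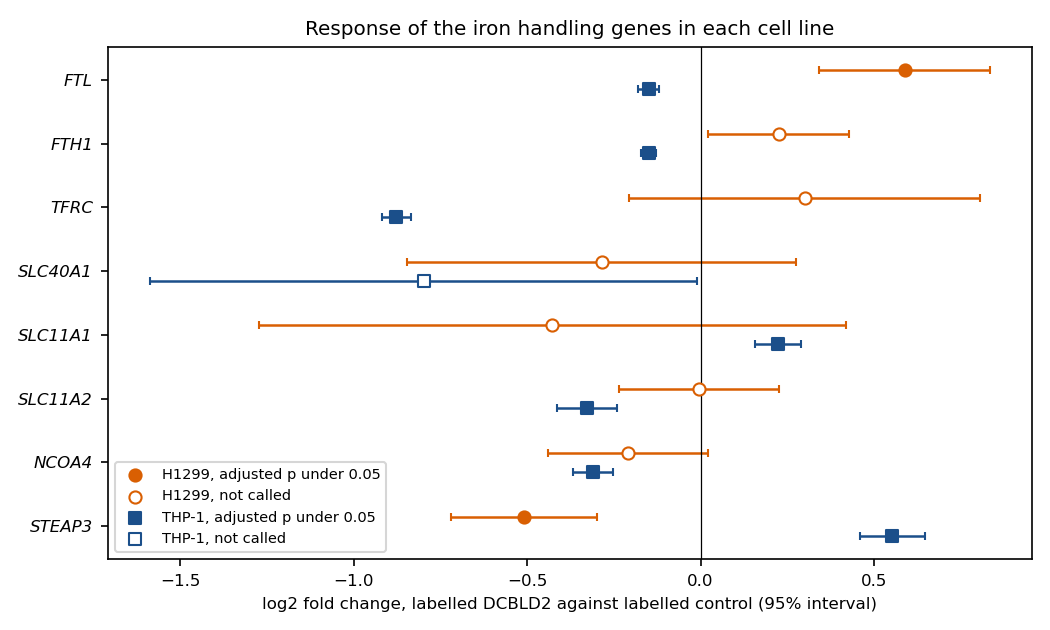
Log2 fold change of each gene, labelled DCBLD2 against labelled control, in H1299 (orange circles) and THP-1 (blue squares), with 95% intervals and open symbols where the adjusted p was 0.05 or more. TFRC in THP-1 lies at -0.88, and STEAP3 lies at -0.51 in H1299 and at 0.55 in THP-1.

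The ferritin chains were by far the most abundant of the 8 transcripts in both lines. FTH1 (ENSG00000167996, chr11:61959718-61967660, minus strand) encodes the chain with the ferroxidase site that oxidises iron for storage. It held 801, 825 and 759 TPM in the labelled control libraries of H1299 and 922, 879 and 942 TPM in the labelled DCBLD2 libraries. In THP-1 it held 44649, 44379 and 44288 TPM in the labelled control libraries and 41559, 39419 and 40303 TPM in the labelled DCBLD2 libraries. FTH1 was the most abundant of all genes in each of the 6 THP-1 libraries, while in H1299 it stood between rank 153 and rank 184. The groups did not overlap within either line, with the labelled DCBLD2 libraries above the controls in H1299 and below them in THP-1. The share of all genes without overlap is not given, so here and below a lack of overlap is a description alone.

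FTH1 fell by 0.15 ± 0.01 (SE) on the log2 scale in THP-1 (adjusted p = 2.78e-12, edgeR). The fall was 0.09 without TMM scaling, and its adjusted p was 0.492 when the wider spread of H1299 was assumed for every gene. In H1299 the log2 fold change was 0.23 ± 0.09 (SE), with a 95% interval of 0.02 to 0.43 before adjustment and an adjusted p of 0.102, so it was not called. It was called (adjusted p = 0.00569, edgeR) when all 12 libraries shared a single fit.

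FTL (ENSG00000087086, chr19:48965301-48966878, plus strand) encodes the light chain, which helps the iron core form. Its level was 1845, 1852 and 1799 TPM in the labelled control libraries of H1299. In the labelled DCBLD2 libraries it was 2404, 3010.5 and 2901 TPM, all above the controls. In THP-1 it was 18199.5, 17644 and 17871 TPM in the labelled control libraries and 15923, 15927 and 15384 TPM in the labelled DCBLD2 libraries. The order was thus reversed in THP-1, with the controls higher and no overlap. FTL ranked between 3 and 5 among all genes in THP-1, and between 44 and 90 in H1299.

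FTL rose by 0.59 ± 0.11 (SE) on the log2 scale in H1299 (adjusted p = 0.00825, edgeR). Without labelled DCBLD2 replicate 2 the adjusted p was 0.0529. In THP-1 FTL fell by 0.15 ± 0.01 (SE; adjusted p = 1.76e-09, edgeR), or by 0.09 without TMM scaling. That call was lost with the spread of H1299 (adjusted p = 0.491) and in the shared fit of 12 libraries (0.133).

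Together the chains made up 0.263% ± 0.00617 (SD, n = 3) of all TPM in labelled control H1299 libraries and 0.369% ± 0.0313 in labelled DCBLD2 libraries. In THP-1 the share was 6.23% ± 0.0442 and 5.62% ± 0.115 (SD, n = 3). The balance between the chains differed between the lines: FTL exceeded FTH1 in all 6 H1299 libraries, and FTH1 exceeded FTL in all 6 THP-1 libraries. The ratio of FTH1 to FTL was 0.434, 0.445 and 0.422 in labelled control H1299 libraries and 0.383, 0.292 and 0.325 in labelled DCBLD2 libraries, with no overlap. The difference was -0.39 on the log2 scale, with p = 0.1 by a two-sided exact permutation test, the smallest p that 3 against 3 libraries allow. In THP-1 the ratio was 2.45, 2.52 and 2.48 against 2.61, 2.475 and 2.62, and these groups overlapped. Their difference was 0.05 on the log2 scale (exact permutation p = 0.3), and it was 0.00038 when computed from estimated counts in place of TPM.

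**Figure D3:**
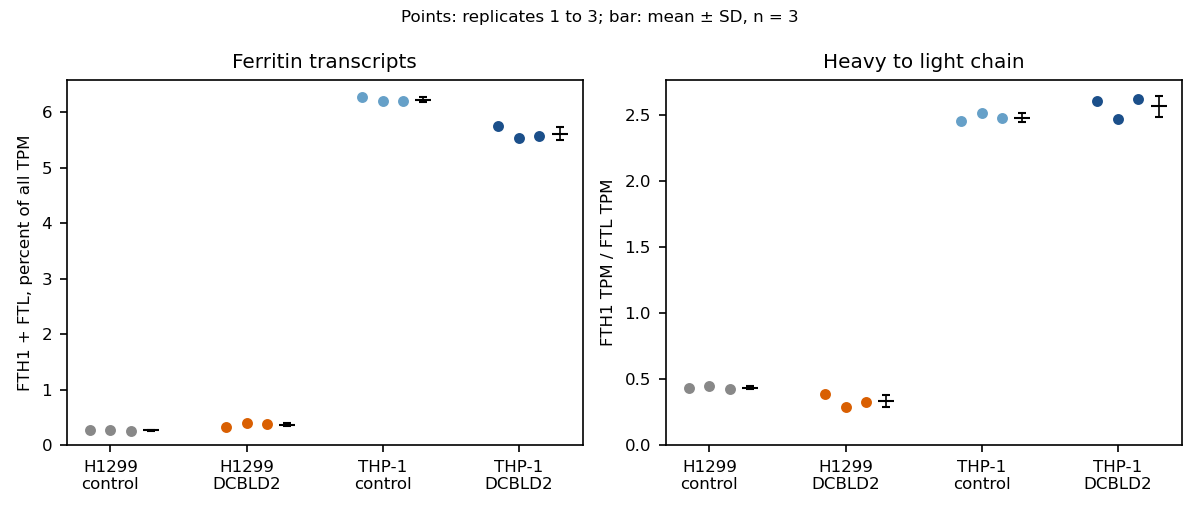
Ferritin transcripts by library: the summed FTH1 and FTL level as a percent of all TPM (left) and the ratio of FTH1 TPM to FTL TPM (right), with 3 points a group and a bar for the mean ± SD. The ratio lies below 0.5 in every H1299 library and above 2.4 in every THP-1 library.

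Near-identical copies make ferritin counts uncertain. GENCODE names 25 FTH1 and 16 FTL pseudogenes, and 0 of either are among the genes with values. How reads shared with them were assigned is not given in the sources used here. FTH1 also overlaps BEST1, a chloride channel gene on the opposite strand, which held 12.2 to 15.6 TPM in THP-1 and 0.035 to 0.172 TPM in H1299. Strand handling is likewise not given, but these levels are small beside those of FTH1.

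TFRC (ENSG00000072274, chr3:196027183-196082189, minus strand) held 156, 158 and 157 TPM in the labelled control libraries of THP-1 and 82.0, 83.4 and 85.5 TPM in the labelled DCBLD2 libraries. Every labelled DCBLD2 library lay below every labelled control library, and the gap between the groups was many times the spread within them. Its log2 fold change was -0.88 ± 0.02 (SE), with a 95% interval of -0.92 to -0.83 and an adjusted p of 2.61e-22 (edgeR). Over all the alternatives run, the highest adjusted p was 0.000875, with the spread of H1299. In H1299 TFRC was low and variable, at 13.8, 10.4 and 19.6 TPM in the labelled control libraries and 24.0, 15.3 and 14.8 TPM in the labelled DCBLD2 libraries. These groups overlapped, and the log2 fold change of 0.30 ± 0.23 (SE) was not called (adjusted p = 0.363, edgeR). Its 95% interval of -0.21 to 0.81 leaves room for a rise or a small fall.

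STEAP3 (ENSG00000115107, chr2:119223831-119265652, plus strand) changed in opposite directions in the lines. In H1299 it held 49.5, 51.4 and 51.1 TPM in the labelled control libraries and 37.2, 35.9 and 36.9 TPM in the labelled DCBLD2 libraries. In THP-1 the values were 19.6, 23.0 and 19.6 TPM and 28.9, 30.9 and 29.8 TPM. Neither line showed overlap, with the labelled DCBLD2 libraries lower in H1299 and higher in THP-1. The log2 fold change was -0.51 ± 0.09 (SE) in H1299 (adjusted p = 0.00801, edgeR) and 0.55 ± 0.05 (SE) in THP-1 (adjusted p = 5.67e-11, edgeR). The H1299 call was lost without labelled DCBLD2 replicate 2 (adjusted p = 0.0524), and the THP-1 call held under every alternative run, with a highest adjusted p of 0.00326. An antisense gene, STEAP3-AS1, overlaps it and is not among the genes with values. Reads of the pair cannot be told apart if strand was not used in counting.

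SLC11A2 (ENSG00000110911, chr12:50979401-51028566, minus strand) was at 37.9, 35.4 and 40.4 TPM in the labelled control libraries of THP-1 and at 31.6, 30.5 and 29.7 TPM in the labelled DCBLD2 libraries. All labelled DCBLD2 values lay below the controls. The fall was 0.33 ± 0.04 (SE) on the log2 scale (adjusted p = 1.45e-07, edgeR), and its adjusted p was 0.0986 with the spread of H1299. In H1299 the libraries were at 22.9, 20.4 and 20.5 TPM and at 22.6, 22.01 and 19.6 TPM. These groups overlapped almost fully, with a log2 fold change of -0.0035 and a 95% interval of -0.23 to 0.23.

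SLC11A1 (ENSG00000018280, chr2:218382029-218396894, plus strand) separated the lines more than any other member. In THP-1 it held 61.5, 66.04 and 58.8 TPM in the labelled control libraries and 79.3, 77.1 and 73.6 TPM in the labelled DCBLD2 libraries, without overlap. It rose by 0.22 ± 0.03 (SE) on the log2 scale (adjusted p = 9.64e-07, edgeR), a call lost with the spread of H1299 (adjusted p = 0.286). In H1299 the gene was near the limit of detection, with 0.359, 0.389 and 0.386 TPM and 0.163, 0.292 and 0.366 TPM. These came from 52 reads over the labelled control libraries and 33 over the labelled DCBLD2 libraries. Its 95% interval there, -1.27 to 0.42, spans a fall and a rise, so a change was not detectable at this depth.

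NCOA4 (ENSG00000266412, chr10:46005088-46030714, minus strand) held 76.3, 75.4 and 74.6 TPM in the labelled control libraries of THP-1 and 57.2, 59.1 and 62.3 TPM in the labelled DCBLD2 libraries, again without overlap. The receptor that sends ferritin to the lysosome thus fell beside the chains themselves, by 0.31 ± 0.03 (SE) on the log2 scale (adjusted p = 3.34e-10, edgeR). With the spread of H1299 the adjusted p was 0.120. In H1299 the labelled control libraries held 104, 78.8 and 92.4 TPM and the labelled DCBLD2 libraries 78.9, 86.0 and 74.0 TPM, and the groups overlapped. The log2 fold change there, -0.21 ± 0.10 (SE), was not called (adjusted p = 0.170, edgeR), but was called in the shared fit of 12 libraries (0.0467).

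SLC40A1 (ENSG00000138449, chr2:189560579-189583758, minus strand), the exporter, was scarce everywhere. It held 2.34, 1.38 and 1.67 TPM in labelled control and 1.803, 1.265 and 1.39 TPM in labelled DCBLD2 libraries of H1299, which overlapped. In THP-1 it held 0.348, 0.717 and 0.623 TPM and 0.314, 0.157 and 0.468 TPM, which overlapped as well. The THP-1 values came from 58 and 37 reads over 3 libraries each. The log2 fold change in THP-1 was -0.80 ± 0.38 (SE; adjusted p = 0.0678, edgeR) and was not called, although it was called without labelled control replicate 1 (0.0371) or without labelled DCBLD2 replicate 3 (0.0399). In H1299 it was -0.28 ± 0.25 (SE; adjusted p = 0.437, edgeR).

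**Figure D4:**
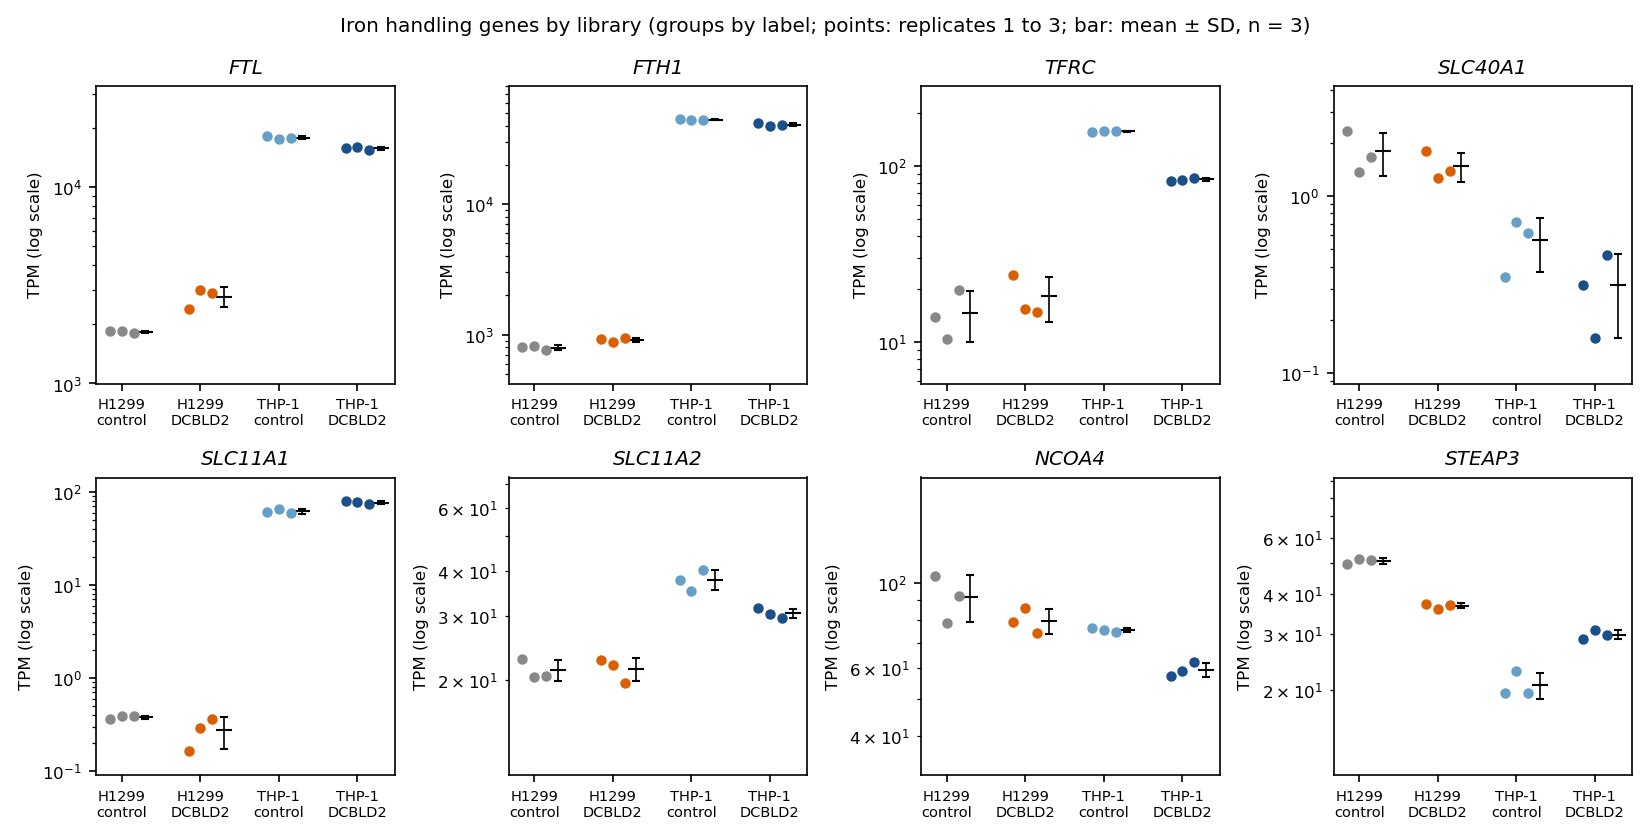
TPM of each of the 8 genes in all 12 libraries on log axes, with 3 points a group and a bar for the mean ± SD (n = 3). SLC11A1, FTH1, TFRC and FTL sit far higher in THP-1 than in H1299, and SLC40A1 sits lower.

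Between the labelled control groups, 7 of the 8 genes differed by line, and all but NCOA4 differed more than between the groups within either line. THP-1 exceeded H1299 by 133-fold for SLC11A1, 69.6-fold for FTH1, 13.0-fold for TFRC, 11.8-fold for FTL and 2.0-fold for SLC11A2. STEAP3 was 2.04-fold and SLC40A1 2.94-fold lower in THP-1. These folds come from the shared fit of 12 libraries, in which 5 members were called higher (42.3% of all 14244 genes were) and 2 lower (43.6%). The median log2 difference was 2.28 over the members and -0.03 over all genes. NCOA4 was not called, at a log2 difference of -0.0019 with a 95% interval of -0.15 to 0.15. Its value depended on the scaling: from total counts, which move the median of all genes to -0.46, it was -0.43 and called. By the same scaling the log2 difference of SLC11A2, the 2.0-fold above, was 0.57. PMA and the exposure to H1299 were given to THP-1 alone, so line and treatment cannot be told apart.

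In each group the order of the 8 levels in TPM began with the ferritin chains and ended with SLC40A1 or SLC11A1. In labelled control H1299 libraries FTL led FTH1, followed by NCOA4 at 91.7 TPM ± 12.7, STEAP3 at 50.7 TPM ± 0.969, SLC11A2 at 21.3 TPM ± 1.40 and TFRC at 14.6 TPM ± 4.67 (SD, n = 3). In labelled control THP-1 libraries FTH1 led FTL, followed by TFRC at 157 TPM ± 0.779, NCOA4 at 75.4 TPM ± 0.837 and SLC11A1 at 62.1 TPM ± 3.65 (SD, n = 3). Next came SLC11A2 at 37.9 TPM ± 2.53 and STEAP3 at 20.7 TPM ± 1.97 (SD, n = 3). In the labelled DCBLD2 libraries of THP-1, SLC11A1 at 76.7 TPM ± 2.88 stood close to TFRC at 83.6 TPM ± 1.77. NCOA4 followed at 59.5 TPM ± 2.60, and SLC11A2 at 30.6 TPM ± 0.935 and STEAP3 at 29.9 TPM ± 1.01 did not differ beyond their spread. In the labelled DCBLD2 libraries of H1299, SLC11A2 at 21.4 TPM ± 1.60 and TFRC at 18.05 TPM ± 5.20 (SD, n = 3) also lay within their spread.

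The response itself differed between the lines for 5 of the 8 genes, where 38.7% of all genes differed. For the others the difference was not called. The test gave both lines a shared spread per gene, although H1299 varied more. For FTH1 the SE of the difference, 0.080, was below that of H1299 alone, 0.091. The response in THP-1 minus that in H1299 was 1.05 ± 0.10 (SE) for STEAP3 (adjusted p = 5.97e-06, edgeR), the member with the smallest p. For TFRC it was -1.18 ± 0.25 (SE; adjusted p = 0.00190). The ferritin chains differed too, by -0.75 ± 0.11 for FTL (adjusted p = 0.000133) and by -0.39 ± 0.08 for FTH1 (0.00178), all from edgeR. SLC11A2 differed by -0.34 ± 0.10 (SE; adjusted p = 0.0180), but this call was lost from total counts (0.0882) and without any of 5 single libraries (0.0504 to 0.0863). Those libraries were labelled control replicate 3 and labelled DCBLD2 replicates 1 and 2 of H1299, and labelled control replicates 1 and 3 of THP-1. SLC11A1, at 0.62 with an adjusted p of 0.106, was called without labelled DCBLD2 replicate 3 of H1299 (0.0279).

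Other properties of the THP-1 libraries moved with the same groups. Mitochondrially encoded genes held 3.48% to 3.51% of reads in labelled control and 2.46% to 2.58% in labelled DCBLD2 libraries. Ribosomal protein genes held 3.95% to 3.97% and 5.47% to 5.76%. The summed level of 12 myeloid markers was 5213 to 5279 TPM and 7178 to 7217 TPM. Members of that sum did not move alike: the mean of FCER1G was 1249 and 2166 TPM and that of TYROBP 869 and 1733 TPM, while LAPTM5 was at 1804 and 1564 TPM, CD68 at 318 and 289 TPM and ITGAM at 132 and 69.7 TPM. The sum of 12 carcinoma markers was 221 to 233 TPM and 168 to 179 TPM, with KRT19 at 0 in all. Most of that gap lay in CAV1, at 146 and 109.9 TPM, and AXL, at 26.7 and 8.87 TPM, while TEAD1 was at 15.03 and 17.8 TPM, KRT8 at 0.283 and 0.524 TPM and KRT18 at 0.204 and 1.01 TPM. The sum of 8 erythroid markers was 1.84 to 3.26 TPM and 10.7 to 13.5 TPM, with ALAS2 at 0 in all. In H1299 the carcinoma sum was 3179 to 3440 TPM and 2416 to 2997 TPM. Its largest gap lay in KRT18, at 1379 and 938 TPM, while EGFR was at 17.7 and 23.0 TPM, TEAD1 at 14.4 and 22.9 TPM and LAMB1 at 64.8 and 68.5 TPM. The myeloid sum in H1299 was 139 to 142 TPM and 199 to 202 TPM, nearly all of it CD68, at 136 and 198 TPM. TYROBP was at 2.56 and 0.682 TPM there, and PTPRC and AIF1 were at 0. Their part in the changes of the 8 genes was not tested. In bulk RNA, fewer cells of a type and less RNA per cell cannot be told apart.

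Beside the 8 members, 67 genes in 5 lists of iron and haem biology were examined. In THP-1, 18 of 58 tested genes rose, 23 fell and 17 did not pass the test, with a median log2 fold change of -0.11. In H1299, 6 of 54 rose, 7 fell and 41 did not pass, with a median of 0.02. These counts stand beside the shares of all genes called in THP-1 (34.5% higher, 33.6% lower) and in H1299 (10.3% and 10.6%).

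Among 13 regulators, 4 of the 11 tested rose and 5 fell in THP-1. IREB2, which encodes an iron regulatory protein, rose by 0.42 (12.8 to 15.6 TPM, adjusted p = 4.22e-09, edgeR), or by 0.27 by limma on log2(TPM + 1). EPAS1, the hypoxia-inducible factor 2α gene, fell by 0.94 on the log2 scale (6.93 to 3.75 TPM, adjusted p = 3.05e-11). BMP6, a ligand that induces the iron hormone hepcidin in the liver, fell by 0.55 in THP-1 (adjusted p = 7.00e-09). PCBP2, an iron chaperone for ferritin, rose by 0.14 in THP-1 (adjusted p = 1.18e-06), and this call was lost in the shared fit (0.0851) and with the spread of H1299 (0.526). In H1299, 1 of 10 tested rose, BMP6 by 1.81 from 1.09 to 3.92 TPM (adjusted p = 0.00266). There 2 fell. NEO1 (neogenin), a partner of hemojuvelin in hepcidin control, fell by 1.56 (adjusted p = 0.0154) from only 0.732 to 0.243 TPM, and HFE, the haemochromatosis gene, fell by 0.50 (0.0315). By limma on log2(TPM + 1) NEO1 fell by 0.48. Both calls were lost without labelled DCBLD2 replicate 2 (0.0831 and 0.145), and HFE also with labelled DCBLD2 replicate 1 (0.0845) or labelled control replicate 1 (0.0533) left out.

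Of 17 genes for iron transport and binding, 10 were tested in THP-1, where 4 rose and 5 fell. STEAP1, a member of the STEAP family like STEAP3, rose by 0.76 (39.2 to 64.5 TPM, adjusted p = 1.19e-12, edgeR). SLC39A8, a zinc and iron importer, rose by 0.54 (adjusted p = 0.000407). The falls included CYBRD1, a ferric reductase gene, by 1.01 on the log2 scale (6.61 to 3.22 TPM, adjusted p = 3.70e-08) and HEPHL1, a copper ferroxidase gene, by 2.28 (1.65 to 0.335 TPM, adjusted p = 1.02e-10). The fall of HEPHL1 was 0.99 by limma on log2(TPM + 1), a scale that understates changes of low genes. In H1299, 1 of 9 rose, STEAP2, by 0.54 (adjusted p = 0.0336), and 1 fell, the lysosomal channel gene MCOLN1, by 0.62 (0.0129). STEAP2 was lost without any single labelled DCBLD2 replicate (0.0519 to 0.152), and MCOLN1 without labelled DCBLD2 replicate 2 (0.0747).

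Of 11 genes for haem uptake, export and breakdown, 2 rose and 5 fell in THP-1. HMOX1, the haem oxygenase that frees iron from haem, was at 83.6 TPM ± 1.54 in labelled control and 44.2 TPM ± 2.92 in labelled DCBLD2 libraries (SD, n = 3). Its log2 fold change of -0.88 (adjusted p = 2.52e-15, edgeR) was the size of that of TFRC. In H1299 HMOX1 was 28.9 TPM ± 0.724 and 39.3 TPM ± 2.80 (SD, n = 3) and rose by 0.42 (adjusted p = 0.0247), but the call was lost when labelled control replicate 3 or a labelled DCBLD2 replicate was left out (0.0612 to 0.109). LRP1, the receptor for haem bound to haemopexin, fell by 0.56 in THP-1 (adjusted p = 5.34e-18) and rose by 1.14 in H1299 (0.00256). BLVRB, a biliverdin reductase gene, rose by 0.48 in THP-1 (adjusted p = 1.06e-10). CD163, the haemoglobin-haptoglobin receptor of macrophages, rose by 1.22 (0.00328) from a level of only 0.262 to 0.698 TPM, and by 0.42 by limma on log2(TPM + 1). In H1299, 2 of 9 tested genes rose, HMOX1 and LRP1, and 1 fell, the folate and haem carrier SLC46A1, by 0.74 (adjusted p = 0.00826). SLC46A1 was not called by limma on log2(TPM + 1), at -0.28 with an adjusted p of 0.286.

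Of 11 haem synthesis genes, 4 rose, 4 fell and 3 did not pass in THP-1. ALAS1, the first and rate-limiting enzyme of the pathway, fell by 0.62 (235 to 150.3 TPM, adjusted p = 2.06e-18, edgeR), and CPOX by 0.46 (3.26e-06). UROD, a mid-pathway enzyme, rose by 0.63 (84.8 to 129 TPM, adjusted p = 1.10e-13). In H1299, 0 of 11 rose by edgeR's test, also at an unadjusted p under 0.05, and 2 fell: ALAD by 0.60 (adjusted p = 0.00945) and UROS by 0.50 (0.0145), both lost without labelled DCBLD2 replicate 2 (0.0513 and 0.0796).

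Of 15 genes for mitochondrial iron import and iron-sulfur assembly, 4 rose, 4 fell and 7 did not pass in THP-1. SLC25A37 (mitoferrin-1), an importer of iron into mitochondria, fell by 0.71 on the log2 scale (64.2 to 37.5 TPM, adjusted p = 1.76e-15, edgeR). ISCU, the scaffold on which clusters are built, fell by 0.39 (2.25e-10), while FDX2 and ISCA2 rose by 0.56 (1.51e-08) and 0.40 (3.51e-06). In H1299, 2 rose and 1 fell. The chaperone HSPA9 rose by 0.51 (adjusted p = 0.0284, edgeR), and FDXR, a reductase, fell by 0.45 (0.0469). HSPA9 was lost without labelled DCBLD2 replicate 1 or 2 (0.107 and 0.0902). FDXR was lost with any of labelled DCBLD2 replicates 1 and 2 and labelled control replicates 2 and 3 left out (0.0853 to 0.186).

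**Figure D5:**
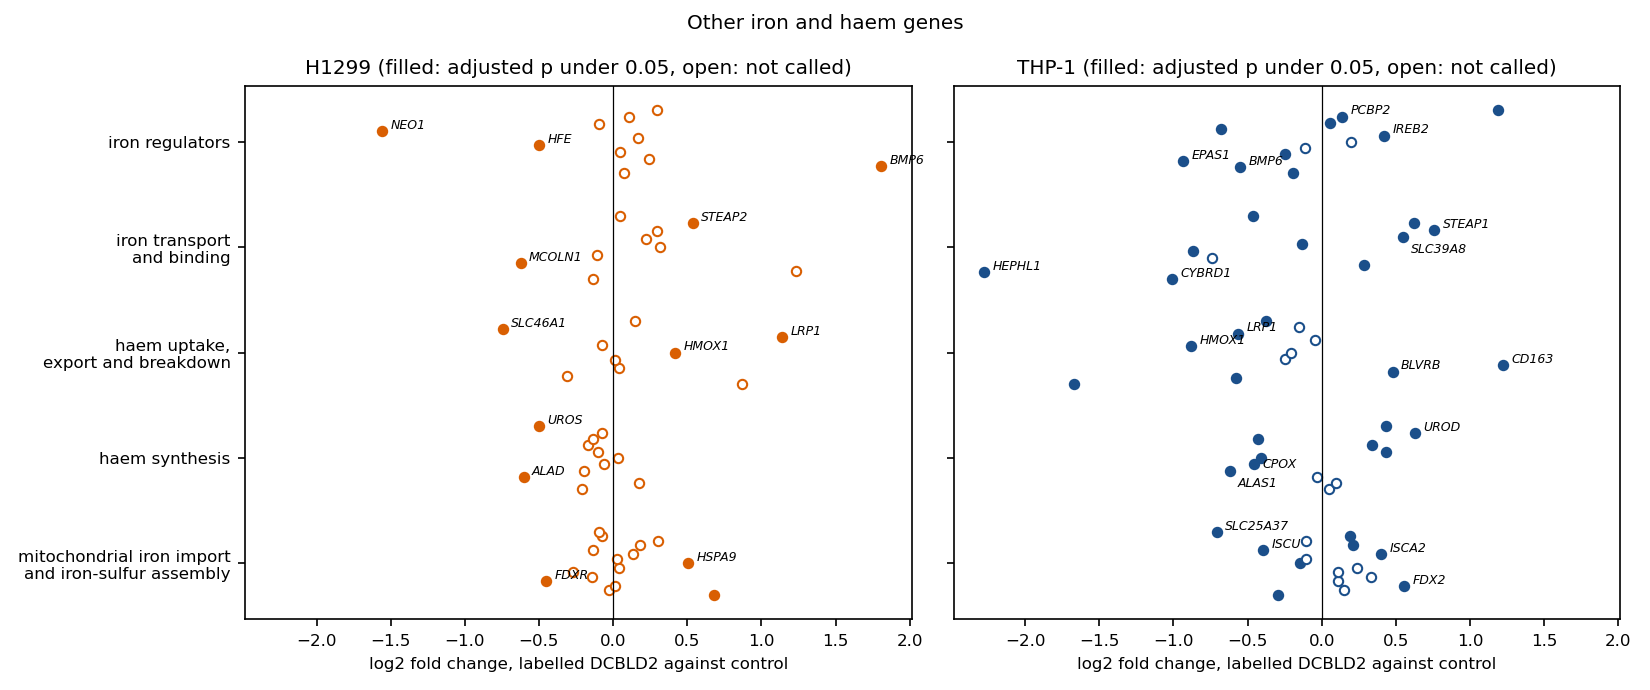
Log2 fold change, labelled DCBLD2 against labelled control, of the tested genes of the 5 lists in H1299 (left) and THP-1 (right), with filled points at an adjusted p under 0.05 and open points for the rest. Points lie on both sides of 0 in every list in THP-1, where HMOX1 lies at -0.88, STEAP1 at 0.76 and HEPHL1 at -2.28.

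The genes most like 4 of the members were found by Pearson correlation of log2(TPM + 1) over the 12 libraries, each centred on the mean of its line, among 11083 genes. FTL was most like ZFP36 (r = 0.990) and DLG4 (0.977), and FTH1 most like MFF (0.951) and H2BC12 (0.932). TFRC was most like SRP68 (0.979) and MAPKAPK5 (0.9753), and SLC40A1 most like ZDHHC13 (0.869) and ERMAP (0.868). The libraries share their groups, so these values describe the same contrasts and carry no test.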

How the data were processed

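RNA-seq libraries of enriched mRNA were made after Trizol extraction with the NEBNext Ultra kit, per the labels' protocols. Reads were handled with RSEM, HISAT2, StringTie 1.3.1, Bowtie2 2.2.8 and fastp 0.18.0 on hg38, per the submitters' processing notes. The authors deposited TPM values, which have the same sum in every library, and estimated counts (expected counts), which are not normalized, for 20307 genes, 605 of them without a symbol. Neither the use of strand nor the annotation's release is given in the sources used here. GENCODE release 29 held 98.9% of the identifiers and gave positions and untranslated regions.

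Estimated counts were rounded and tested with edgeR 4.0.16 (R 4.3.3): TMM scaling, filterByExpr with a minimum of 10 counts, the quasi-likelihood test (two-sided) and Benjamini-Hochberg adjustment over all genes, with a separate fit of 6 libraries per line. A fit of all 12, with a spread per gene shared by both lines, gave the differences between lines. Fold changes carry SE, computed as the size of the log2 fold change divided by the square root of the test's F statistic. Intervals are 95%, built from that SE and not adjusted. TPM means carry SD. The steps were tested on simulated counts. Chi-square values per gene between replicates were 1.55 to 2.30 in THP-1 and 10.8 to 36.6 in H1299, so no libraries were merged.

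Named genes are the 8 members, DCBLD2, and per list and line up to 2 called higher and 2 called lower with the smallest p, some of which are not reported here. The members and lists were chosen with earlier results of these data known. Alternatives were a block for the replicate number, each library left out, a shared fit, DESeq2 1.42.0, its size factors, upper quartile scaling, other filters, limma 3.58.1 on TPM with pseudocounts of 1 and 0.1, the H1299 spread for THP-1 with a likelihood ratio test and, chosen after seeing the data, scaling by total counts. Hairpins were searched with Python 3.11.15 in untranslated regions of at least 30 bases. No protein sequences or promoters are printed.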

Additional observations from a re-analysis of the deposited data

Results flagged for a closer look

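For 24 named genes the response to the label differed between the lines in edgeR's test of the difference itself (adjusted p under 0.05), and values here are the log2 response in THP-1 minus that in H1299. Among the iron handling genes the differences were -0.75 for FTL, -0.39 for FTH1, -1.18 for TFRC, -0.34 for SLC11A2 and 1.05 for STEAP3. Among regulators they were -2.37 for BMP6, -1.19 for EPAS1 and 0.88 for NEO1, which fell in both lines. Among transport genes they were 0.45 for STEAP1, -0.88 for CYBRD1 and 0.90 for MCOLN1. For haem uptake, export and breakdown they were -1.72 for LRP1, -1.32 for HMOX1, 0.57 for SLC46A1 and 0.43 for BLVRB. Haem synthesis genes differed by 0.56 for ALAD, 0.91 for UROS, -0.44 for ALAS1, 0.69 for UROD and -0.41 for CPOX. Mitochondrial genes differed by -0.66 for HSPA9, 0.55 for FDXR, -0.63 for SLC25A37 and 0.53 for FDX2. The largest adjusted p among them was 0.0456, for FDXR, followed by 0.0356 for NEO1 (edgeR). Of all 14244 genes, 38.7% differed in this way. The named list genes were picked for a small p within a line of these same data, so their number cannot be compared with that share. Their differences between the lines were not run under the alternatives. The test gave both lines a shared spread per gene, although H1299 varied more than THP-1. For NEO1 the SE of the difference, 0.31, was below that of H1299 alone, 0.35. Calls near the threshold, such as those of FDXR and NEO1, may therefore look firmer than the H1299 libraries allow.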

How the results depend on the processing

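No called value changed direction under the alternatives run, which for the differences between lines covered the members alone. Of all genes in H1299, 1313 were higher and 1356 lower: 822 and 811 were higher by limma with pseudocounts of 1 and 0.1, 816 were lower with the replicate block, and 2672 were higher and 2384 lower in the shared fit. Leaving out single libraries gave 184 to 1825 higher and 330 to 1333 lower, with the lowest counts without labelled DCBLD2 replicate 2, followed by replicate 1 (559 and 815) and labelled control replicate 3 (748 and 901). In THP-1, 4528 were higher and 4413 lower: 2978 were higher in the shared fit, and 2358 were higher and 2173 lower with the spread of H1299. Single libraries left out gave 4302 to 4463 higher and 4165 to 4256 lower. The shared fit called 2 members higher and 2 lower in H1299, and leaving out libraries left 0 to 1 in each direction. The spread of H1299 left 1 member higher (STEAP3) and 1 lower (TFRC) in THP-1, and leaving out libraries gave 2 higher and 5 to 6 lower. The cause of these shifts was not tested. Members called different between the lines numbered 4 to 6. The FTH1 to FTL difference ran from -0.49 to -0.30 in H1299 and from 0.03 to 0.08 in THP-1 with libraries left out, and was 0.00038 in THP-1 from counts. Same-numbered replicates did not deviate together in H1299 (r from -0.28 to -0.12, beside up to 0.36 for other pairs). In THP-1 their r was 0.03 to 0.06, beside up to 0.03 for other pairs. Values this small do not settle whether the numbers pair the THP-1 libraries. The replicate block changed no call of a member within a line. The block ended the call for the difference of SLC11A2 between the lines (adjusted p = 0.0561) and, in H1299, for HMOX1, HFE, STEAP2 and FDXR (0.0519 to 0.104), and limma on TPM ended those of HFE, STEAP2, FDXR and SLC46A1 (0.0678 to 0.302). The block also put FTL in H1299 below 1.5-fold. Few reads lie behind SLC40A1 in THP-1 (58 and 37) and SLC11A1 in H1299 (52 and 33).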

Other observations

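Of the 67 genes in the other lists, 3 held a match to the hairpin search. EPAS1 held it before its coding sequence and IREB2 after its own, each with 1 unpaired base, and TF held a fully paired match after its coding sequence. Over all genes, 0.403% held a match before and 1.76% after the coding sequence when 1 unpaired base was allowed. In THP-1 EPAS1 fell and IREB2 rose, as given above. TF, the transferrin gene, went from 0.869 TPM ± 0.0897 to 0.599 TPM ± 0.0695 (SD, n = 3) in THP-1, a log2 fold change of -0.47 (adjusted p = 0.000281, edgeR).

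A few genes were chosen after their values were seen. TFR2, the second transferrin receptor, rose by 1.19 on the log2 scale in THP-1 (adjusted p = 0.00138, edgeR) while TFRC fell, but it held only 0.405 TPM ± 0.120 and 0.791 TPM ± 0.0455 (SD, n = 3). ABCG2, an exporter of haem and other molecules, fell by 1.67 in THP-1 (adjusted p = 1.00e-06, edgeR), from 1.31 TPM ± 0.350 to 0.346 TPM ± 0.0695 (SD, n = 3). The other iron regulatory protein, ACO1, fell by 0.19 in THP-1 (adjusted p = 0.000856, edgeR), opposite to IREB2. The hepcidin gene HAMP held 1.92 TPM ± 0.790 and 1.74 TPM ± 0.301 in THP-1 (SD, n = 3), was listed at 0 in all H1299 libraries and was not called. FTHL17, a ferritin heavy chain relative, had 1 read in each THP-1 group and none in H1299.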
